A study of Mus musculus with 8 samples.

Results

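Mouse astrocytes that expressed HER2CA were compared at day 15 with and without 4-hydroxytamoxifen (4OH-TAM), across all 13607 genes of the deposited table. The comparison used 4 of the 8 libraries of the study, 2 in each group, chosen by their labels alone. HER2CA is an activated form of the receptor tyrosine kinase HER2, induced here from a lentivirus with doxycycline through the activator rtTA. The cells were C57BL/6J astrocytes with Yap f/f;Taz f/f alleles, in which Cre recombinase can delete both genes, and they also received CreERT2, a Cre that 4OH-TAM switches on. The 2 HER2CA libraries without 4OH-TAM (HER2CA A and B) came from cells with doxycycline at day 15. Their condition label names DMSO while the treatment text calls such cells untreated, so whether vehicle was given is unclear. The 2 libraries labelled 4OH-TAM (4OH-TAM A and B) came from cells with doxycycline and 1 µM 4OH-TAM at day 15, and their source label calls them YAP/TAZ knockout. All cells were kept in serum-free medium with EGF and bFGF. The other 4 libraries, which entered the model's estimate of spread and serve below as reference levels, were 2 of untransformed control astrocytes without doxycycline and 2 of HER2CA gliomaspheres, free-floating aggregates collected at 3 weeks. All 8 carried the floxed alleles. The labels name no driver for CreERT2 and no clone, and they do not say whether A and B were separate cultures, so a p-value speaks only to the spread among the libraries at hand, which could be technical.

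YAP (gene Yap1) and TAZ (gene Wwtr1) are coactivators of transcription that bind DNA through the TEAD factors. The Hippo kinases MST1/2 (Stk4, Stk3) activate LATS1/2, which phosphorylate YAP and TAZ and keep them out of the nucleus. Ctgf and Cyr61 are the best known targets of YAP and TAZ. In astrocytes and neural progenitors both coactivators are linked to growth, attachment and the choice of cell fate.

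The groups follow the labels, and Yap1 did not fall. It stood at 101 and 103 CPM (counts scaled to library size with TMM factors) in the HER2CA libraries and at 107 and 103 CPM in those labelled 4OH-TAM. The groups overlapped, the log2 fold change was 0.04 (SE 0.07) and its 95% interval ran from -0.10 to 0.19 (edgeR quasi-likelihood test, Benjamini-Hochberg adjusted p = 0.569). Wwtr1 was lower, at 194 and 210.3 CPM against 123 and 122 CPM, with a log2 change of -0.73 (SE 0.07) (edgeR adjusted p = 1.25e-07, but 0.0738 with no scaling factors). Scaled by upper-quartile factors, Yap1 passed upward, with a log2 fold change of 0.25 (edgeR adjusted p = 0.00352) beside a median of 0.22 over all genes. Control astrocytes held Yap1 at 144 and 136 CPM and Wwtr1 at 177 and 168 CPM. The counts sum the exons of a gene (chr9:7931999-8004596 for Yap1 and chr3:57455649-57575910 for Wwtr1, both minus strand, GRCm38), so they do not show whether the floxed exons were present. Every direction below is therefore that of libraries labelled 4OH-TAM over libraries labelled HER2CA day 15, not of a measured loss of YAP.

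Total counts were 21253566 and 28231426 in the HER2CA libraries and 23360311 and 23485021 in those labelled 4OH-TAM. Genes without a single count numbered 91 and 72 in the first pair and 1 and 0 in the second. Log2 CPM correlated across genes at 0.99562 within HER2CA and 0.99609 within 4OH-TAM. Gliomaspheres B stood apart, with 36.08% of its counts on the ribosomal RNA gene Rn45s, against 0.984% to 2.92% elsewhere. It is printed below beside gliomaspheres A, and counts against all other libraries are also given without it. The astrocyte label was checked on 7 measured markers, which include Gfap, Aqp4 and Slc1a3. All had counts in all 4 libraries, from 2435 and 2501 summed CPM in HER2CA to 10320 and 10780 in the libraries labelled 4OH-TAM. In HER2CA, S100b was under 1 CPM in both libraries and Slc1a3 made up most of the sum. Other markers were present too. In HER2CA those of the oligodendrocyte lineage summed to 118 and 110 CPM and those of microglia to 255 and 267 CPM.

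The change was broad, and its direction differed with abundance. Of 13607 genes, 10947 (80.5%) passed an edgeR adjusted p under 0.05, 5547 of them upward (40.8%) and 5400 downward (39.7%) from HER2CA to 4OH-TAM. Because so many genes passed, the counts below also use a change of at least 2-fold, which 3252 genes (23.9%) passed upward and 1266 (9.3%) downward. Each count for a list below is to be set beside these shares. Over all genes the median change was 0.01 on the log2 scale. Among the 3402 genes with the lowest mean CPM, 1803 passed 2-fold upward and 184 downward, with a median of 1.13. Among the 3402 with the highest mean CPM the order turned, with 311 upward and 506 downward and a median of -0.39. Genes under 1 CPM on average numbered 1391 in HER2CA and 390 in 4OH-TAM. With upper-quartile factors in place of TMM the median over all genes moved to 0.22 and the split of called genes to 6569 higher and 4109 lower, and with no scaling factors to 0.13 and to 4338 and 2037.

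**Figure D1:**
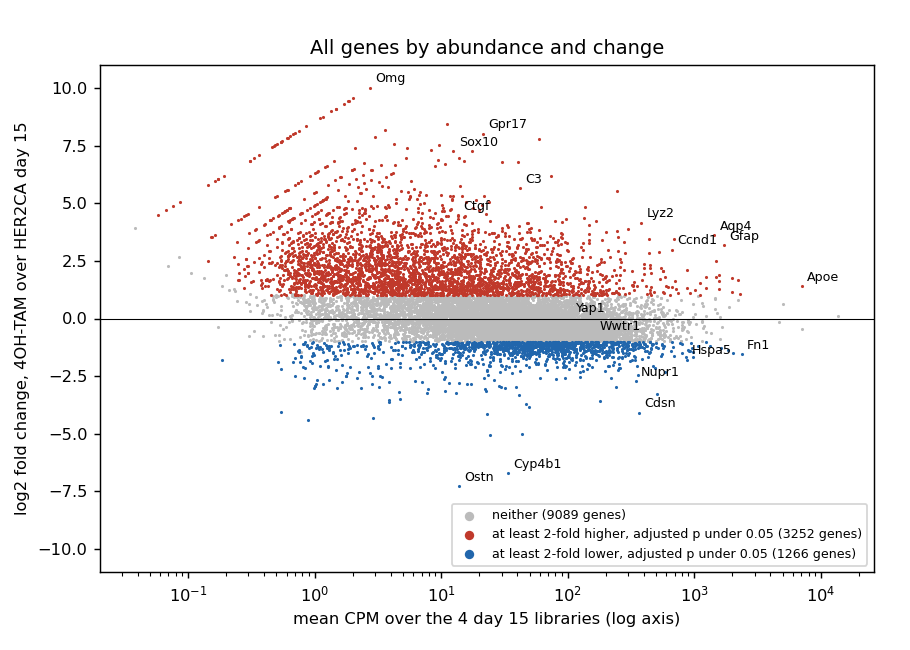
Each point is 1 of 13607 genes, placed by its mean CPM over the 4 day 15 libraries (log axis) and its log2 fold change, with genes past 2-fold in red (3252 higher) and blue (1266 lower) and the rest in grey. Red points crowd the low-abundance side, blue points gather among abundant genes, and Yap1 lies near 0.

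Among the partners of YAP and TAZ, the TEAD factors moved in opposite directions. Tead1 rose from 124 and 124 CPM to 290.4 and 296 CPM, with a log2 change of 1.24 (SE 0.09), and Tead3 rose from 13.3 and 15.1 to 24.4 and 24 CPM. Tead4 fell from 11.1 and 14.5 to 3.91 and 3.25 CPM (log2 fold change -1.84 (SE 0.16)), while Tead2, at 35.2 and 35.2 against 32.6 and 28.5 CPM, did not pass (edgeR adjusted p = 0.0514). Vgll4, which competes with YAP for TEADs, and Vgll3, another TEAD cofactor, were lower, with log2 fold changes of -0.43 (SE 0.09) and -0.66 (SE 0.14), though neither passed with no scaling factors. In control astrocytes Tead1 stood at 178 and 165 CPM and Tead4 at 8.79 and 9.27 CPM, so for both genes the 4OH-TAM pair lay farther from the HER2CA pair than the controls did.

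The Hippo kinases and scaffolds changed in both directions: 7 of 22 measured members rose and 8 fell, against 40.8% and 39.7% of all genes. Their median of -0.07 turned to 0.14 with upper-quartile factors and to 0.05 with no scaling factors. Stk3 (83.9 and 82.2 against 57.8 and 55.8 CPM) and its scaffold Sav1 fell, with log2 fold changes of -0.55 (SE 0.08) and -0.39 (SE 0.08), and so did the LATS activators Mob1a and Mob1b. Lats1 (129.7 and 132 against 132 and 137 CPM) and Stk4 did not pass, and Lats2, itself a YAP/TAZ target, fell, with a log2 change of -0.47 (SE 0.09). None of the 5 that fell here passed with no scaling factors. The upstream scaffolds Wwc1 (KIBRA), Amot, which tethers YAP outside the nucleus, and Frmd6 (Willin) passed 2-fold upward. Wwc1 stood at 89.4 and 101 against 223 and 235 CPM, Amot at 27 and 26.8 against 60.7 and 64 CPM and Frmd6 at 8.34 and 7.86 against 18.8 and 18.3 CPM. Wtip, a LIM protein of the Ajuba family, fell from 16 and 17.6 to 7.66 and 7.99 CPM.

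Most of the listed YAP/TAZ targets rose from HER2CA to 4OH-TAM. Of 21 measured, 15 rose and 3 fell, with 10 past 2-fold upward and 1 past it downward and a median of 0.88 against 0.01 over all genes. Ctgf, which encodes a secreted matrix protein, was at 1.05 and 1.24 CPM in HER2CA and at 26.7 and 25.2 CPM in 4OH-TAM, with a log2 change of 4.48 (SE 0.17) (edgeR adjusted p = 7.62e-12). Cyr61, its close relative, was at 34.9 and 54.5 CPM and 118 and 105 CPM (1.31 (SE 0.14)). The day 15 groups did not overlap for either gene. In controls Cyr61 was above both groups (284 and 260.0 CPM), and Ctgf lay between them (17.2 and 14.1 CPM). The receptor kinase Axl (58.1 and 63 against 163 and 155 CPM), tissue factor F3 (42.3 and 55.2 against 141 and 131 CPM), the stress gene Gadd45b (1.65 and 1.72 against 9.57 and 8.19 CPM) and the Hedgehog factor Gli2 (6.28 and 6.31 against 13.9 and 13.6 CPM) rose too. The members that fell were Myof, a membrane repair protein (433 and 403 against 180.5 and 181 CPM), Ajuba (39.4 and 54.9 against 23.9 and 24.4 CPM) and Lats2. Crim1, Amotl2 and Ptpn14 did not pass.

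**Figure D2:**
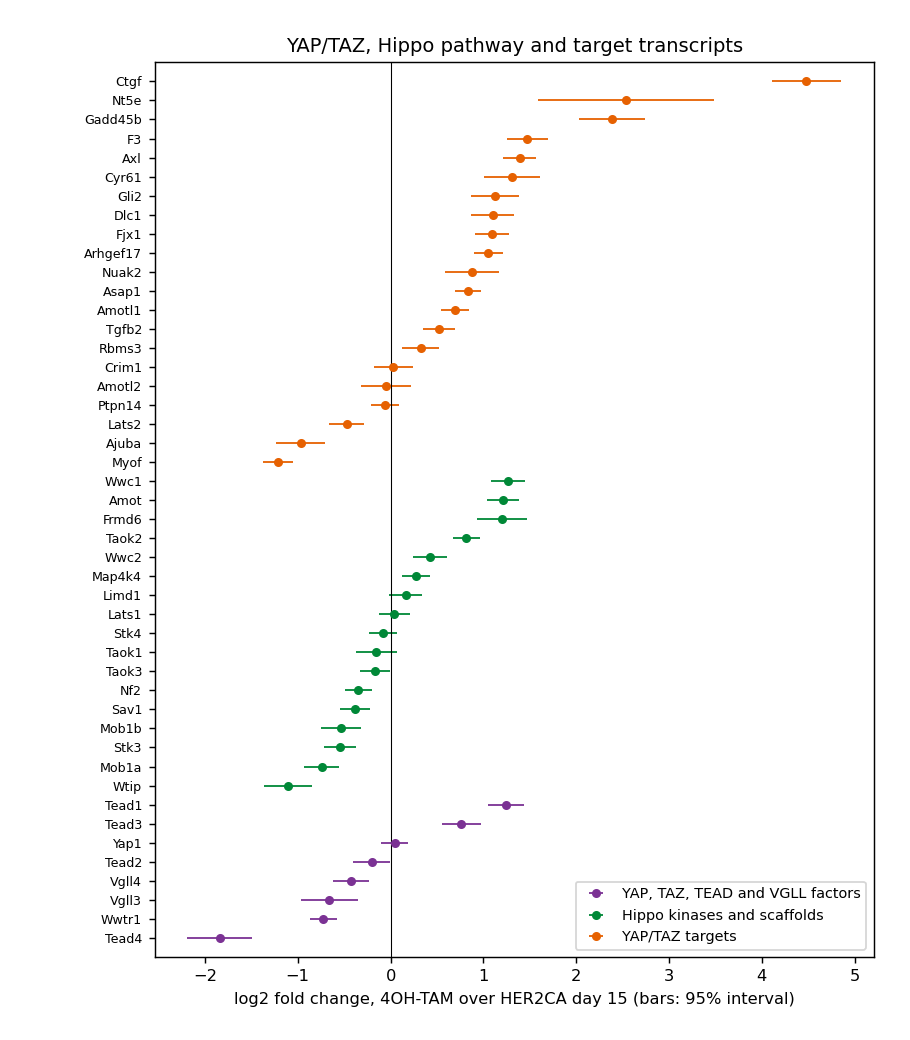
Log2 fold change (4OH-TAM over HER2CA day 15) with its 95% interval for TEAD-binding factors, Hippo kinases and scaffolds, and YAP/TAZ targets, genes shared by the last 2 lists being shown with the targets. Ctgf lies farthest right at 4.48, Tead4 farthest left at -1.84, and the interval of Yap1 spans 0.

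The promoters of 3 targets are shown because their genes moved in different directions although each holds the core of the TEAD motif, GGAATG or its reverse complement. Sequences are the 250 bases upstream of the RefSeq start (GRCm38.p6), read 5′ to 3′ on the gene's strand, with the motif in capitals. Cyr61 (chr3:145649986-145650235, minus strand) and Axl (chr7:25788734-25788983, minus strand) rose, and Ajuba (chr14:54577662-54577911, minus strand) fell.
Cyr61: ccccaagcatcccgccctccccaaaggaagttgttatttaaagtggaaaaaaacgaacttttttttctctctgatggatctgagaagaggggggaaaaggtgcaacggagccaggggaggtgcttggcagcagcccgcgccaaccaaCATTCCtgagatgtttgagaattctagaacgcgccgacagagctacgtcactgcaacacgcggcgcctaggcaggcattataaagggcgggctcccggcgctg
Axl: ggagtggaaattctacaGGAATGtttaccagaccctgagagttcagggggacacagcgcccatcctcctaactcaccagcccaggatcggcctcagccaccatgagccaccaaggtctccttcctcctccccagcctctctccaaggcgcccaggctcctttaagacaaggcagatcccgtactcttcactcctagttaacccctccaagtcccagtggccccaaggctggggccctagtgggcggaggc
Ajuba: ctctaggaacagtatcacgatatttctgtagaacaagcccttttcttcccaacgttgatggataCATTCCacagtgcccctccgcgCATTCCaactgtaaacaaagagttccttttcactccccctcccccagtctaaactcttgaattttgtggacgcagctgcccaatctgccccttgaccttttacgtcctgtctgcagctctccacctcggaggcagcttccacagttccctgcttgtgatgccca
The motif, on either strand, was in 6 of 17 promoters of listed targets (35.3%), against 10.7% of the 13874 promoters of tested genes, 12.4% of those of genes at least 2-fold higher and 9.42% of those at least 2-fold lower. A match is a run of letters and says nothing on binding.

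Transcripts of the ErbB system moved in both directions. Endogenous Erbb2 stood at 30.9 and 30.05 CPM in HER2CA and 28.6 and 27.7 CPM in 4OH-TAM and did not pass (edgeR adjusted p = 0.246), and reads of the HER2CA construct are not separable in the table. Egfr, the EGF receptor, rose from 52.3 and 59.2 to 132 and 135 CPM (1.26 (SE 0.08)), and its ligand Tgfa from 14.4 and 14.6 to 37.1 and 32.9 CPM. The neuregulins, ligands of ERBB3 and ERBB4, fell the most on the list, Nrg1 from 34.6 and 41.8 to 8.43 and 7.80 CPM and Nrg2 from 36.7 and 38.1 to 5.82 and 6.62 CPM. Both were lower still in controls, at 5.61 and 4.94 and 4.38 and 4.86 CPM. Hbegf, another EGF receptor ligand, was lower, with a log2 change of -0.54 (SE 0.10) that did not pass with no scaling factors. Lrig1, which promotes receptor turnover, rose from 172 and 178 to 477 and 494 CPM.

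Feedback genes downstream of ERK, the kinase that ErbB receptors activate through RAS, were mostly higher. On that list 12 of 15 measured members rose and 1 fell, 10 past 2-fold upward and 1 past it downward. Etv4, a PEA3 family factor, was at 6.32 and 7.24 CPM in HER2CA, 64 and 56 CPM in 4OH-TAM and 52.6 and 55.1 CPM in controls. The ERK phosphatase Dusp6 was at 14.2 and 15.9 against 92.6 and 105 CPM, and the Sprouty inhibitor Spry1 at 1.42 and 1.72 against 18.6 and 17.9 CPM. For all 3 the HER2CA pair was below the control pair as well, which stood at 29 and 27.5 CPM for Dusp6 and 5.03 and 5.56 CPM for Spry1. Ets2 alone on the list fell, from 159 and 141 to 36 and 38 CPM. Among immediate early factors 9 of 21 measured members rose and 9 fell, near the shares over all genes (40.8% and 39.7%), with Klf4, a pluripotency and injury factor, at 218 and 212 against 34.7 and 39.5 CPM and Egr3 at 5.50 and 5.28 against 22.7 and 22.3 CPM.

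Genes of mature astrocytes were higher in the libraries labelled 4OH-TAM. Of the list of transport and metabolism genes, 34 of 37 measured members rose and 2 fell, with a median of 2.46. Past 2-fold, 31 were higher and 1 lower. Over all genes 40.8% rose and 39.7% fell, and 23.9% and 9.3% passed 2-fold. Aqp4, the water channel of astrocyte endfeet, rose from 212 and 217 to 2618 and 2679 CPM, with a log2 change of 3.62 (SE 0.09) (edgeR adjusted p = 2.26e-13). Slc25a18, a mitochondrial glutamate carrier, rose from 1.97 and 2.04 to 141 and 151 CPM and the metabolic regulator Ndrg2 from 10.04 and 10.4 to 499 and 461 CPM. Glul, the glutamine synthetase that clears glutamate, was at 194 and 200.2 against 867 and 929 CPM. Apoe, the main lipid carrier astrocytes secrete, had the largest gain in reads, from 3379 and 4365 to 10326 and 10112 CPM. The glutamate transporter Slc1a3 rose from 1464 and 1509 to 2981 and 3186 CPM, and the calcium-binding protein S100b from 0.275 and 0.207 to 6.28 and 7.61 CPM. For Aqp4, Glul and Slc25a18 the 4OH-TAM pair was also above both control libraries (1205 and 1364, 219 and 250.1 and 34.4 and 44.2 CPM), whereas Apoe was not (10169 and 12204 CPM). Of the 31 past 2-fold upward, the HER2CA pair was below all 6 other libraries for 29 (93.5%), against 75.1% over all such genes. The 4OH-TAM pair was above all 6 others for 10 (32.3%), a smaller share than the 39.4% over all such genes. In bulk RNA, fewer cells of a type and less RNA per cell cannot be told apart.

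Intermediate filaments, which give astrocytes their shape and mark reactive states, all changed, 7 of 11 upward. Gfap rose from 324 and 349.5 to 3027 and 3127 CPM (3.19 (SE 0.14)), Vim from 3949.7 and 3936 to 6187 and 5861 CPM and Synm from 5.87 and 4.52 to 21.8 and 20.9 CPM.

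**Figure D3:**
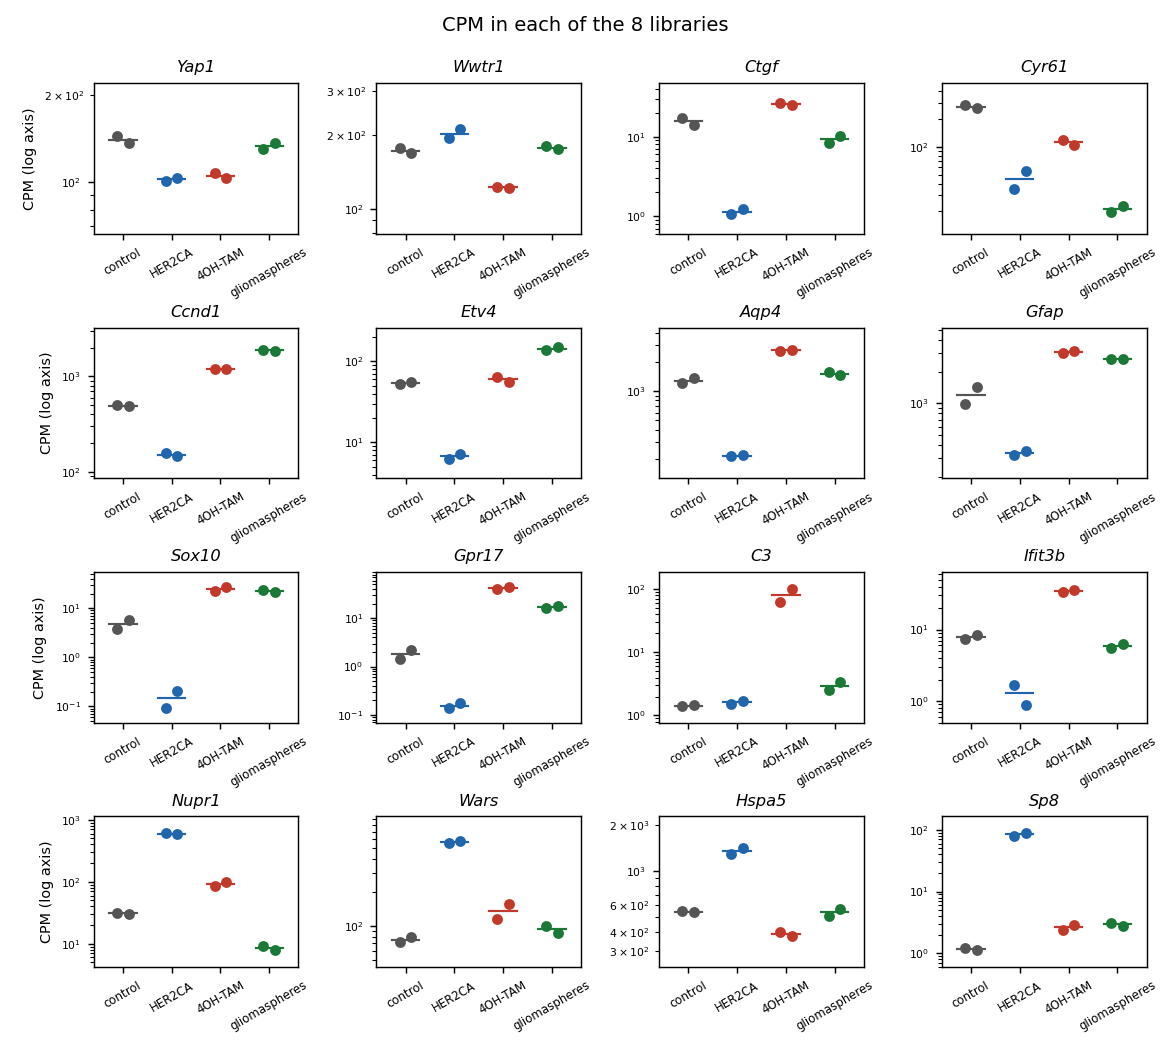
CPM of 16 genes in each of the 8 libraries (log axes), with points for libraries and a line at each pair's mean. Yap1 is level between the day 15 pairs, Aqp4, Gfap, Sox10 and C3 sit higher in the 4OH-TAM pair, and Nupr1, Wars, Hspa5 and Sp8 sit highest in the HER2CA pair.

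Oligodendrocyte-lineage genes had the largest median of the 40 lists, 4.00, with 25 of 26 higher and 24 of them at least 2-fold. The list summed to 1176 and 1255 CPM in HER2CA, 1914 and 2018 CPM in controls and 3738 and 4024 CPM in 4OH-TAM. For 22 of the 24 the HER2CA pair was below all 6 other libraries, and for 8 the 4OH-TAM pair was above all 6 others. The shares over all genes past 2-fold upward were 75.1% and 39.4%. Sox10, the lineage-defining factor, was at 0.0917 and 0.207 CPM in HER2CA and 22 and 27.6 CPM in 4OH-TAM. Gpr17, a receptor of cells on the way to becoming oligodendrocytes, was at 0.137 and 0.172 CPM against 39.6 and 45.3 CPM, and Bcas1, a marker of early myelinating cells, at 0.229 and 0.207 CPM against 34.8 and 34.6 CPM. Omg, a myelin glycoprotein, had 0 counts over the HER2CA libraries and 288 over those labelled 4OH-TAM, which is at least 93.3-fold higher when set against 3 counts over the group. Olig1, which primes the lineage, rose from 37.7 and 27.5 to 446 and 464 CPM, and the perineuronal net protein Tnr from 0.0917 and 0.103 to 15.7 and 17.6 CPM. For Gpr17 and Bcas1 the 4OH-TAM pair exceeded even the gliomaspheres (16.6 and 17.6 and 12.1 and 12 CPM), whereas for Olig1 and Omg the gliomaspheres were above it (2362 and 2156 and 39.5 and 47.4 CPM). The group's depth allowed up to 3 counts of Omg in HER2CA, so its absence there was not shown.

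Glial and progenitor transcription factors followed, with 26 of 35 higher, 17 at least 2-fold, and 4 lower. Over all genes 40.8% were higher, 23.9% at least 2-fold, and 39.7% lower. Id4, an inhibitor of basic helix-loop-helix factors, was at 7.75 and 6.45 against 95.7 and 92.7 CPM. Sox2, a factor of neural stem cells, fell from 729 and 729 to 295 and 307 CPM (-1.28 (SE 0.08)), and Sox21, Sox6 and Sox11 fell by less than 2-fold, Sox6 and Sox11 without passing when no scaling factors were used. Ion channels (35 of 42 higher, median 2.09) and receptors for transmitters and purines (30 of 35 higher, median 2.27) were mostly higher too. Past 2-fold upward were 66.7% of the channels and 71.4% of the receptors, against 23.9% of all genes. Of the 3402 genes with the lowest mean CPM, 1803 also passed 2-fold upward. The sodium channel Scn7a had 1 count over the HER2CA libraries and 377 over those labelled 4OH-TAM, a depth-scaled ratio of 367 (95% interval 65.4 to 14517, counting error only). Cacng5, an auxiliary subunit of AMPA receptors, was at 1.42 and 1.48 against 40.1 and 37 CPM and the glutamate receptor Grm5 at 0.137 and 0.241 against 18 and 24.3 CPM. Neuronal markers were low but went the same way, with 5 of 6 higher and summed levels of 133 and 142 CPM against 372 and 385 CPM. All 3 measured endothelial markers rose as well, from 3.48 and 3.14 to 30.8 and 27.6 summed CPM, and the part of such cells in these results was not tested.

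Growth factor and matrix genes were mostly higher, where over all genes 40.8% rose and 39.7% fell. Past 2-fold upward were 42.9% of the growth factor list and 68.4% of the matrix list, against 23.9% of all genes. Downward it was 14.3% and 7.02%, against 9.3%. Of growth factors and their inhibitors, 26 of 42 measured members rose and 10 fell, but 6 fell without 4OH-TAM B or with no scaling factors. Fgf1, a heparin-binding mitogen, was at 0.458 and 0.586 against 59.6 and 60.1 CPM, and Angpt2, a TIE2 ligand, at 0.321 and 0.207 against 30.5 and 29.99 CPM. Bmp3, an atypical BMP, fell from 48.3 and 39.7 to 2.64 and 2.33 CPM and Gdf15, a stress-induced hormone, from 46.7 and 49 to 11 and 12.9 CPM. Of the matrix list, 44 of 57 measured members rose and 10 fell. Fibroblast and mural markers moved beside it, 7 of 8 measured being higher and 1 lower, with summed levels of 391 and 389 CPM in HER2CA and 434 and 368 CPM in 4OH-TAM. Of these, Rgs5 was at 0 in HER2CA B, and the part of such cells in the matrix result was not tested. Fmod, a collagen-binding proteoglycan, rose from 0.412 and 0.621 to 126 and 110.4 CPM and Bcan, a brain proteoglycan, from 15.9 and 18.1 to 305 and 336 CPM. Fibronectin (Fn1) fell from 3687 and 3383 to 1272 and 1132 CPM, the largest loss of reads, and tenascin C (Tnc) from 1977 and 2181 to 1078 and 1166 CPM. Of integrins and cadherins 23 of 38 measured members rose and 9 fell, and of axon guidance genes 31 of 45 measured members rose and 8 fell. Slit1, an axon repellent, was among the latter and fell from 81.4 and 68.4 to 7.54 and 7.42 CPM. Of contractile and actin-binding genes 11 of 26 measured members rose and 8 fell, against 40.8% and 39.7% of all genes. Past 2-fold, 5 of them were higher and 3 lower, with log2 fold changes on the list from -2.02 to 4.46. Smooth muscle actin (Acta2), with the largest fall on that list, went from 240.0 and 236 to 64.8 and 52.3 CPM.

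Interferon-stimulated genes were higher in the libraries labelled 4OH-TAM with few exceptions. Of that list 43 of 47 measured members rose and 2 fell, 40 past 2-fold upward and 1 past it downward, with a median of 2.43. Ifit3b, an antiviral protein, was at 1.70 and 0.897 CPM in HER2CA and 34 and 35.5 CPM in 4OH-TAM, the GTPase Iigp1 at 0.275 and 0.310 against 13.4 and 13.4 CPM, and Trim30a at 1.33 and 1.35 against 25 and 24.5 CPM. In controls the same genes stood at 7.30 and 8.40, 0.154 and 0.165 and 5.07 and 4.49 CPM, so the 4OH-TAM pair was above every other library for each. That held for 39 of the 40 members past 2-fold, with or without gliomaspheres B, against 1282 of the 3252 genes past 2-fold upward overall (39.4%). The part of this count against the HER2CA pair is fixed by the call. Gbp2 and Gbp7, guanylate-binding proteins, were the 2 members that were lower, though Gbp7 did not pass with no scaling factors.

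The Ifit3b promoter is shown because it holds 2 copies of the interferon response element in the 250 bases upstream of its start (chr19:34607707-34607956, plus strand, RefSeq, GRCm38.p6). Capitals mark the element (GAAA, 2 bases of any kind and GAAA again, here on the opposite strand) and an AP-1 motif, TGANTCA, nearer the start.
Ifit3b: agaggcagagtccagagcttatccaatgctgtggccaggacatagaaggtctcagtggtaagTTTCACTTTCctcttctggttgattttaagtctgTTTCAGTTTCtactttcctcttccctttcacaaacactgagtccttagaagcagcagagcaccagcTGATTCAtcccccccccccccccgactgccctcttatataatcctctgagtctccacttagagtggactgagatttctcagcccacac
The element was found in 16 of 39 promoters of listed interferon genes (41.0%) and in 2.46% of promoters of all tested genes. Of promoters of genes at least 2-fold higher, 3.27% held it, and of those at least 2-fold lower, 2.5%.

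Antigen presentation, complement and cytokine genes went the same way. Of MHC and presentation genes 22 of 24 measured members rose and 1 fell, with B2m, the light chain of class I, at 93.9 and 87.5 against 319 and 289 CPM and the class Ib gene H2-T23 at 0.779 and 0.724 against 13.8 and 13.1 CPM. C3, the central complement protein, was at 1.51 and 1.72 CPM in HER2CA and 62.1 and 102 CPM in 4OH-TAM, with a log2 change of 5.64 (SE 0.24) (edgeR adjusted p = 1.64e-11). Both 4OH-TAM libraries lay above controls (1.42 and 1.44 CPM) and gliomaspheres (2.56 and 3.34 CPM). The proteases C1s1 and C1ra, which start the classical pathway, rose too, C1s1 from 0.458 and 0.483 to 20.3 and 18.7 CPM and C1ra from 0.917 and 1.03 to 11.5 and 12.7 CPM. Of cytokines and chemokines 29 of 34 were higher, among them the alarmin Il33 (2.20 and 2.97 against 21.9 and 20.5 CPM) and the scavenger receptor Ackr3 (2.61 and 2.21 against 20.1 and 19.7 CPM). Microglial markers moved beside them: 14 of 15 measured were higher and 1 lower, with summed levels of 255 and 267 CPM in HER2CA, 1182 and 1131 CPM in 4OH-TAM, 255 and 281 CPM in controls and 150 and 147 CPM in gliomaspheres. Lyz2 was at 41.2 and 39.5 against 729 and 713 CPM, Csf1r at 3.99 and 4.00 against 20.6 and 21.7 CPM and Tmem119 at 0.0458 and 0.0345 against 1.34 and 0.995 CPM, and no measured marker was at 0 in any of the 4 libraries. The part of microglial RNA in these immune results was not tested.

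Genes of protein synthesis and turnover were mostly lower, though fewer passed with no scaling factors. Over all genes 39.7% were lower, 9.3% at least 2-fold. At least 2-fold lower were 18.5% of cytosolic ribosomal, 18.4% of mitochondrial ribosomal and 37.8% of tRNA synthetase genes. Abundant genes leaned the same way: among the 3402 with the highest mean CPM the median was -0.39, with 506 past 2-fold downward and 311 upward. Of cytosolic ribosomal protein genes 1 of 81 measured members rose and 70 fell, and their summed level was 23870 and 22450 CPM in HER2CA, 13990 and 14430 CPM in 4OH-TAM and 14670 and 15780 CPM in controls. Mitochondrial ribosomal proteins followed (59 of 76 lower, median -0.64), as did tRNA synthetases (29 of 37 lower, median -0.79). With no scaling factors 35 cytosolic ribosomal, 24 mitochondrial ribosomal, 19 tRNA synthetase and 24 proteasome genes were lower. Wars, which charges tryptophan tRNA, fell from 555 and 577 to 116 and 159 CPM, with a log2 change of -2.04 (SE 0.12) (edgeR adjusted p = 5.28e-10), and Lars, its leucine counterpart, from 665 and 641 to 189 and 226 CPM. Rpl8, a large-subunit protein, fell from 573 and 559 to 225 and 239 CPM and Mrpl32 from 64.4 and 69.9 to 20.8 and 21.5 CPM. The translation factors Eef1a1, Eif4a1 and Eif3a, all abundant, were lower too. Eef1a1 was at 8406 and 7874 against 5933 and 6078 CPM (not past the threshold with no scaling factors), Eif4a1 at 1441 and 1550.4 against 474 and 465 CPM and Eif3a at 1425 and 1449 against 505 and 528 CPM.

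Of proteasome genes 3 of 37 measured members rose and 33 fell, against 40.8% and 39.7% of all genes. At least 2-fold lower were 29.7%, against 9.3% of all genes. The ATPase subunit Psmc2 fell from 312 and 304 to 94.9 and 100.3 CPM and Psmc4 from 246 and 243 to 82.8 and 87.9 CPM. The 3 that rose were Psmb8, Psmb9 and Psmb10, the interferon-inducible catalytic subunits of the immunoproteasome, the last 2 named after their values were seen. Psmb8 was at 1.05 and 1.10 against 7.89 and 7.80 CPM, Psmb9 at 1.01 and 1.10 against 3.26 and 3.56 CPM and Psmb10 at 4.26 and 5.48 against 12.6 and 12.9 CPM.

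The integrated stress response, in which ATF4 and CHOP reprogram amino acid supply under stress, was lower as a list: 4 of 27 measured members rose and 19 fell, 1 past 2-fold upward and 10 past it downward, against 9.3% of all genes at least 2-fold lower. The 4 that rose became 2 without HER2CA A or without 4OH-TAM B, and the 19 that fell became 12 with no scaling factors. Nupr1, a stress-induced chromatin protein, fell from 610.2 and 584 to 84.1 and 98.1 CPM (-2.71 (SE 0.08)) and Ppp1r15a (GADD34), which restores translation, from 535 and 672 to 97.8 and 123 CPM. In controls these stood at 31.7 and 30.7 and 40.9 and 41.4 CPM, so the 4OH-TAM pair was between HER2CA and controls. Of endoplasmic reticulum chaperones 2 of 23 measured members rose and 17 fell, but only 5 fell with no scaling factors. Among the 17 were Hspa5 (BiP) at 1286 and 1418 against 402 and 378 CPM and the sensor Atf6 at 422 and 379 against 96.4 and 110.2 CPM. The amino acid response element TGATGNAA, on either strand, was in 20.0% of 30 promoters of the stress list and in 10.7% of 28 promoters of tRNA synthetases, against 1.98% of promoters of tested genes.

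**Figure D4:**
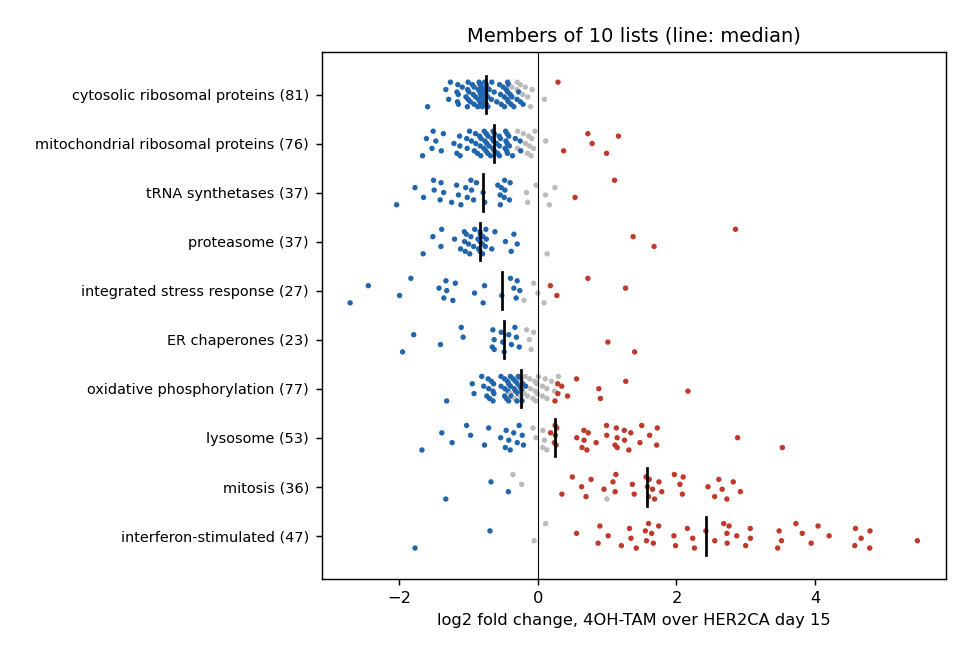
Log2 fold change of each member of 10 lists (red higher and blue lower at adjusted p under 0.05, grey neither), with the black line at the list's median. Ribosomal, tRNA synthetase and proteasome genes lie mostly left of 0, interferon and mitosis genes mostly right, and 3 proteasome genes stand apart on the right.

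Lysosomal genes moved in both directions. Of 53 measured, 30 rose and 17 fell, and with no scaling factors 24 rose and 5 fell. Past 2-fold, 28.3% were higher and 7.55% lower, near the 23.9% and 9.3% of all genes. Cathepsin D (Ctsd) rose from 1245 and 1227 to 2778 and 2681 CPM, cathepsin S (Ctss) from 8.30 and 9.80 to 68.7 and 65.6 CPM and Gpnmb, a glycoprotein of stressed lysosomes, from 37.2 and 42.6 to 451 and 473 CPM. Cathepsin L (Ctsl) fell from 1355 and 1284 to 409 and 417 CPM.

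Genes of mitosis were mostly higher: 30 of 36 measured members rose and 3 fell, 24 past 2-fold upward and 1 past it downward. The shares past 2-fold over all genes were 23.9% and 9.3%, but 1803 of the 3402 genes with the lowest mean CPM passed upward. This list was low, at 175 and 152 summed CPM in HER2CA, 234 and 253 CPM in 4OH-TAM and 175 and 169 CPM in controls. Of DNA replication genes 11 of 40 measured members rose and 15 fell, against 40.8% and 39.7% of all genes. That split turned to 14 and 13 with upper-quartile factors. Of G1 cyclins, CDKs and inhibitors 12 of 28 measured members rose and 10 fell, near the shares over all genes (40.8% higher and 39.7% lower), and with no scaling factors 7 rose and 1 fell. Mki67, the proliferation antigen, was at 3.12 and 1.38 CPM in HER2CA and 13.5 and 16.9 CPM in 4OH-TAM, still below the 245 and 263 CPM of gliomaspheres. Cenpf, a kinetochore protein, was at 1.42 and 1.03 against 7.12 and 8.15 CPM and Ccnb1, the mitotic cyclin, at 1.51 and 0.414 against 6.28 and 5.62 CPM. Mcm5, a helicase subunit, rose from 2.70 and 2.69 to 7.20 and 8.84 CPM while Mcm2, of the same ring, fell from 67.4 and 63.7 to 25.3 and 28.4 CPM. On the G1 list, cyclin Ccnd1 rose from 156 and 145 to 1190.3 and 1188 CPM and Ccnd2 from 576 and 559 to 1655 and 1663 CPM. The CDK inhibitor Cdkn1a (p21) fell from 1331 and 1415 to 599.6 and 522 CPM. Of the 24 mitosis genes past 2-fold upward, 0 (with or without gliomaspheres B) were higher in both 4OH-TAM libraries than in all 6 others.

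The largest single decreases were of genes highest in HER2CA. Ostn, a secreted muscle and bone peptide, was at 30.2 and 24.7 CPM in HER2CA and 0.0383 and 0.306 CPM in 4OH-TAM, with a log2 change of -7.27 (SE 0.30) (edgeR adjusted p = 1.56e-11). The cytochrome P450 gene Cyp4b1 was at 77.3 and 56.3 against 0.574 and 0.689 CPM, the transcription factor Sp8 at 80.8 and 88.5 against 2.41 and 2.87 CPM and Cdsn, an adhesion protein of skin, at 726 and 651 against 32.9 and 47.9 CPM. Ptgs2 (COX-2), which makes prostaglandins, and Abcc4, which exports them, fell from 87.6 and 86.9 to 6.01 and 7.15 CPM and from 1000.0 and 825 to 82.7 and 106 CPM. In controls the 6 genes Ostn, Cyp4b1, Sp8, Cdsn, Ptgs2 and Abcc4 were at most 65.6 CPM, and each stood below the HER2CA pair in both gliomasphere libraries too. Over all genes, 1197 of the 1266 at least 2-fold lower (94.5%) were higher in both HER2CA libraries than in all 6 others, a count that the call itself fixes for the 4OH-TAM pair but not for the other 4 libraries. Without gliomaspheres B it was 1206. Of the 3252 at least 2-fold higher, 2441 (75.1%) were lower in both HER2CA libraries than in all 6 others, and 1282 (39.4%) were higher in both 4OH-TAM libraries than in all 6 others, or 2503 and 1352 without gliomaspheres B.

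**Figure D5:**
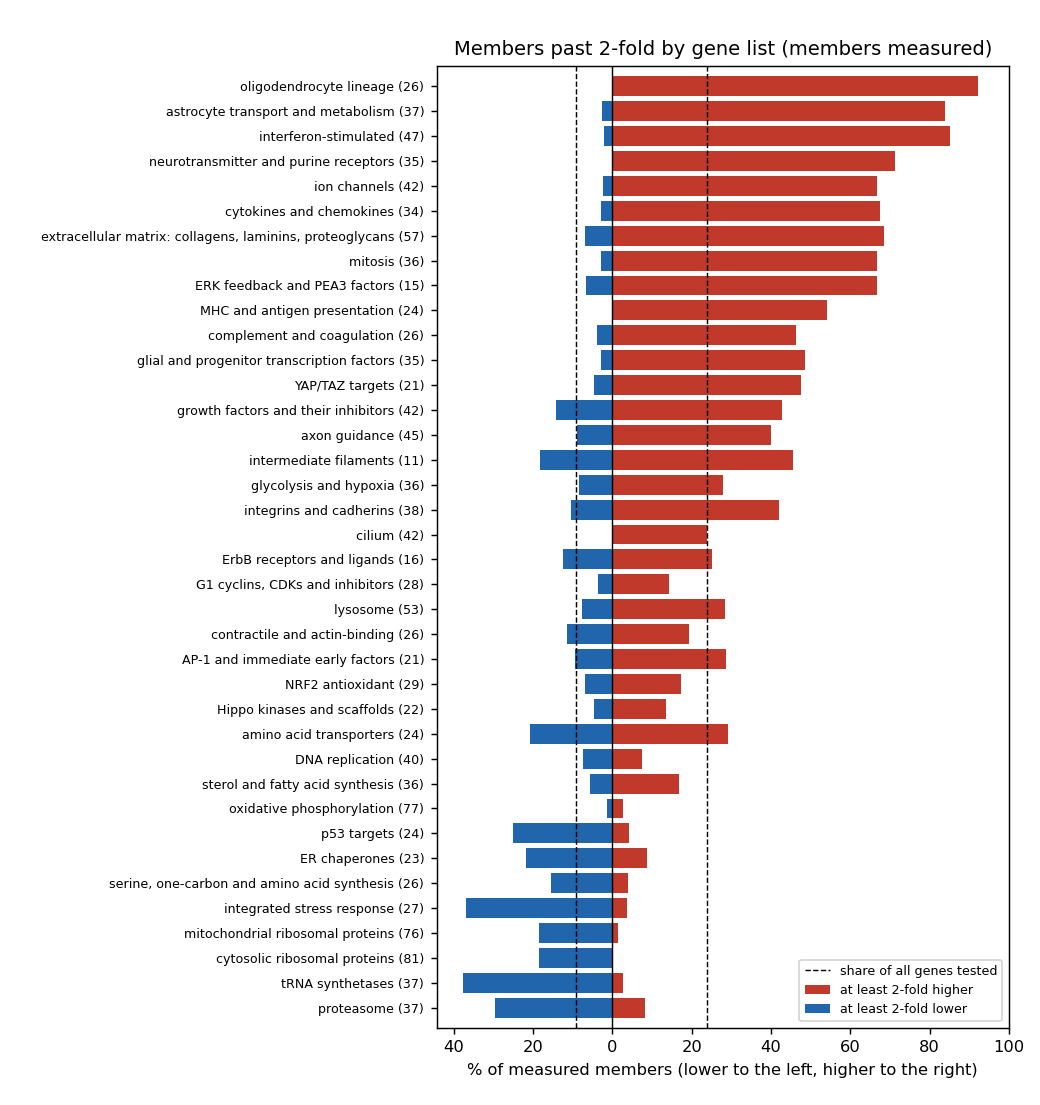
Share of measured members at least 2-fold higher (red, to the right) or lower (blue, to the left) with adjusted p under 0.05 in each list of 10 or more genes, ordered by median log2 fold change, with dashed lines at 23.9% and 9.3%, the shares over all genes. Oligodendrocyte, astrocyte and interferon lists lead, and proteasome, tRNA synthetase and ribosomal lists close the order.

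Some abundant genes held steady. Of 1736 genes above 100 CPM in both groups, 272 had a 95% interval inside a log2 fold change of -0.32 to 0.32. Over all 13607 genes, 1069 did so, a smaller share, and a gene with a wide interval cannot meet this limit. Predicted gene models were left out of the 272 only. Acbd5, which tethers peroxisomes to the endoplasmic reticulum, was at 172 and 175 CPM and 186 and 186 CPM, and Ergic1, a cargo protein of the early secretory pathway, at 166 and 170.1 and 164 and 165 CPM. Transcripts of both X inactivation and the Y chromosome were present in every library, Xist at 909.5 and 794 against 429 and 453 CPM and Ddx3y at 178 and 174 against 76.7 and 79.8 CPM. All 5 sex-linked transcripts measured passed downward, but only 3 did so without HER2CA B, 4OH-TAM A, 4OH-TAM B or gliomaspheres B, and with DESeq2, upper-quartile or no scaling factors.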

How the data were processed

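RNA was sequenced from polyA-selected stranded libraries, per the labels' protocols. The authors deposited whole-number read counts per gene symbol, not normalised, as the values show. The submitters' processing notes list the tools featureCounts, STAR 2.5.3a and FastQC beside the build names GRCm38 and mm10, without saying what each did. Neither the gene annotation nor the strand setting used for counting is given in the sources used here, so genes that overlap on opposite strands (among those named, Omg with Nf1, Gpr17 with Lims2, Slc25a18 with Atp6v1e1, B2m with Patl2 and others) may not be separable. Near-identical copies or pseudogenes may also share reads with Ifit3b, Trim30a, H2-T23, Eef1a1 and the ribosomal proteins. Every symbol in the table was tested.

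A quasi-likelihood model was fitted with edgeR 4.0.16 (R 4.3.3) to all 8 libraries, with 1 mean for each group, TMM factors and 4 residual degrees of freedom, and filterByExpr kept all 13607 genes. P-values were Benjamini-Hochberg adjusted over all genes, with a threshold of 0.05. The standard error of a log2 fold change is its size over the root of its F statistic. The 2 libraries of each day 15 group differed by more than sampling noise (chi-square per degree of freedom 5.51 and 4.05). Each was entered as 1 replicate, but such a difference does not show that A and B were separate cultures. Positions were taken from GENCODE M21 (GRCm38), which held 1 position for 99.4% of symbols, and promoters from RefSeq. The model was tested on simulated data.

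The comparison, the members and the lists were chosen with earlier results of these data known. Named genes are Yap1, Wwtr1 and Erbb2, the 3 largest changes of each list with separate groups and a mean of 5 CPM or more in 1 group, any member of the Hippo, YAP/TAZ/TEAD, target, ErbB, ERK feedback and sex-linked lists, the 15 largest changes in each direction, the 12 largest gains and 12 largest losses in CPM, and the 6 abundant genes with the narrowest intervals. Not all of them are named. Sox2, Sox21, Sox6, Sox11, Rgs5, Lyz2, Csf1r, Tmem119, Gbp2, Gbp7, Psmb9, Psmb10, Rn45s and Slco1a4 were named after their values were seen. Alternatives were relative log expression, upper-quartile and no scaling factors, DESeq2 1.42.0, other filters, only the day 15 libraries, no gliomaspheres B, no Rn45s and Lars2, the replicate letter as a block, and each day 15 library left out in turn. Counts against other libraries without gliomaspheres B were added after seeing the data.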

Additional observations from a re-analysis of the deposited data

How the results depend on the processing

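Of the 4 counts of changed genes, 2 moved by over 1.5 times. With no scaling factors 2037 genes were lower in place of 5400, and with upper-quartile factors 760 were at least 2-fold lower in place of 1266. The cause was not tested. Leaving out 1 day 15 library at a time gave 5109 to 5232 genes higher, 4931 to 5063 lower, 3181 to 3281 at least 2-fold higher and 1236 to 1318 at least 2-fold lower, with the lone library assumed to vary like the other groups. The 5 CPM filter tested only 11806 genes. Under every other alternative with all 4 day 15 libraries, at least 4474 of the 4518 genes past 2-fold kept an adjusted p under 0.05. Across all alternatives the sign of a called change turned only with upper-quartile factors, for 114 genes, none of them named here. Those 114 were counted whether or not they passed with these factors. With no scaling factors Eef1a1, Gbp7, Hbegf, Lats2, Mob1a, Mob1b, Sav1, Sox6, Sox11, Stk3, Vgll3, Vgll4 and Wwtr1 kept their direction but lost their call. Yap1, Lats1, Crim1, Acbd5 and Ergic1 passed upward with upper-quartile factors. Acbd5 also passed with the 5 CPM filter and without gliomaspheres B, and Tead2 passed downward without 4OH-TAM A. Sox11 also lost its call with upper-quartile factors and without HER2CA A. The letters A and B do not pair the libraries in the labels, and their differences did not correlate between the day 15 groups (-0.03). With the replicate block, 5541 genes were higher and 5407 lower, 3248 and 1267 of them at least 2-fold, and no named gene changed its call. With 2 libraries in each group, small changes in genes of few counts are not resolved.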

Other observations

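Of oxidative phosphorylation genes 10 of 77 measured members rose and 42 fell, against 40.8% and 39.7% of all genes. Past 2-fold, 2 were higher and 1 lower, with log2 fold changes on the list from -1.32 to 2.17. With no scaling factors 5 were higher and 5 lower. Atp5g1, a subunit of the ATP synthase ring, fell from 117 and 118 to 46 and 48.4 CPM. Of p53 targets 7 of 24 measured members rose and 14 fell, a split that became 10 and 10 with upper-quartile factors and 4 and 7 with none. Sesn1, a stress sensor of that list, rose from 12.1 and 12.2 to 36.6 and 31.8 CPM. Of genes of the cilium 26 of 42 measured members rose and 7 fell, or 16 and 1 with no scaling factors. Past 2-fold upward were 23.8%, near the 23.9% of all genes. Among those that rose was the axonemal protein Cfap44 at 11.8 and 10.9 against 45.9 and 40.9 CPM. Ependymal markers moved beside the cilium genes, with 5 of 5 measured higher and summed levels of 86.2 and 86.7 CPM against 253 and 252 CPM. None of the 5 was at 0 in the 4 libraries, and their part in the cilium result was not tested. Of glycolysis and hypoxia genes 23 of 36 measured members rose and 10 fell. Past 2-fold, 27.8% were higher and 8.33% lower, near the 23.9% and 9.3% of all genes. Among those that rose was the muscle-type phosphofructokinase Pfkm at 56.6 and 59.3 against 294 and 296 CPM. Of amino acid transporters 10 of 24 measured members rose and 9 fell, near the 40.8% and 39.7% of all genes, and the glutamine transporter Slc38a3 was at 9.40 and 9.24 against 182 and 189 CPM. Of sterol and fatty acid genes 15 of 36 measured members rose and 17 fell, near the shares over all genes, and the split turned to 16 and 11 with upper-quartile factors. Among those that rose were the desaturase Scd2 at 895 and 895 against 3042 and 3056 CPM and the sterol exporter Abcg1 at 2.57 and 2.52 against 32.3 and 32.2 CPM. Controls held 2.57 and 4.49 CPM of Abcg1 and gliomaspheres 2.35 and 3.54 CPM, all below both libraries labelled 4OH-TAM.

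Some genes stood far above all other libraries in the 4OH-TAM pair. Slco1a4, an organic anion transporter, was at 18.5 and 21.1 CPM there, at 0.733 and 0.690 CPM in HER2CA and at 0.346 and 0.618 CPM in controls. Lect1, a cartilage and vessel protein, was at 27 and 27.6 CPM against 0.183 and 0.241 CPM, and Fam107a, an actin-associated protein, at 19.8 and 18.5 CPM against 0.0917 and 0.103 CPM, with controls at 1.11 and 1.44 and 1.27 and 1.36 CPM.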
